A study of Drosophila melanogaster with 3 samples.

Results

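The sites described here are those of the transcription factor pdm3 at 5 genes of the JAK/STAT pathway: dome, hop, Stat92E, Socs36E and Ptp61F. These are 5 of the 13945 protein-coding genes of the annotation. They were chosen by name from the pathway with earlier binding results of the same data known, so their peak counts and peak heights are given as a description, with no test. A site counted for a gene when its summit, the highest point of a peak, lay inside the gene or within 5 kb of it. By that rule 31 of the 8164 summits of the authors' list of reproducible peaks, called optimal, belonged to these genes: 0 to dome, 0 to hop, 3 to Stat92E, 6 to Socs36E and 22 to Ptp61F.

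Chromatin immunoprecipitation followed by sequencing was done on Drosophila melanogaster of 1 transgenic line that stably carries pdm3, a POU-homeodomain factor, fused at its C-terminus to GFP. Whole animals at the white prepupa stage, the immobile stage that opens metamorphosis, were used with both sexes pooled and with the age given as unknown. Chromatin was sonicated to between 200 and 800 bp, and the labels' description names an antibody against GFP for the precipitation, whereas their antibody field names pdm3. All 3 biological replicates form a single group, and the control library that the labels name was not analysed here. The authors deposited 30000 candidate peaks for each replicate, 30000 for the replicates pooled, and the 8164 optimal peaks. They name the candidates peaks and background, so a candidate alone need not be a bound site. The lowest −log10 q-values of the candidates were 0.178, 0.150 and 0.158 in replicates 1, 2 and 3. Each peak carries the authors' signal value, whose normalization is not stated, so peaks were compared by their rank within a list. The lists hold no read counts, and the depth of each library is unknown. A peak from whole animals does not show in which tissue a site was bound, and binding alone does not show whether the gene was regulated.

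In the fly JAK/STAT pathway, ligands of the unpaired family bind the receptor dome, which activates the kinase hop, the single fly JAK. hop phosphorylates Stat92E, the single fly STAT, which then enters the nucleus and activates its targets. Socs36E is both a target and an inhibitor of the pathway, and Ptp61F is a protein tyrosine phosphatase, related to mammalian PTP1B, that counteracts signalling. The pathway is known for its part in segmentation, eye and wing growth, blood cells, stem cell niches and immunity.

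The sequences at the highest summits of Socs36E and Ptp61F, and at the Ptp61F summits whose windows held a searched motif other than the POU half-site alone, are shown because the values below return to them. Each is the summit with 50 bases to either side, taken from the RefSeq sequence of the dm6 assembly, plus strand, 5′ to 3′, and none overlapped an annotated exon. All 5 genes lie on the minus strand. In the first 2 sequences the capitals mark the 9 bases centred on the summit.
Socs36E highest summit, chr2L:18145437-18145537: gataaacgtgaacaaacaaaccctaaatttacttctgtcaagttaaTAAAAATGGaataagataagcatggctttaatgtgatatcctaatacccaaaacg
Ptp61F highest summit, chr3L:1443097-1443197: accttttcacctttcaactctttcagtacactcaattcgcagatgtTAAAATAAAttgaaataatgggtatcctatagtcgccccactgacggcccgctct
In the next 3 the capitals mark letters that match a searched motif: a STAT palindrome with 3 free bases, a STAT palindrome with 4 free bases, and, in the sequence next to the start site of the short transcripts, the half-site ATGCAA of the POU octamer and the DREF word TATCGATA.
Ptp61F summit in the ru intron, chr3L:1376101-1376201: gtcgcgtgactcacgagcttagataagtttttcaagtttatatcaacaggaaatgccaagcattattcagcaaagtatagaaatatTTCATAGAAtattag
Ptp61F summit in the short transcripts, chr3L:1348385-1348485: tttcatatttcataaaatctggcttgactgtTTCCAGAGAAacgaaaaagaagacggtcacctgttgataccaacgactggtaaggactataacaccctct
Ptp61F summit upstream of the short transcripts, chr3L:1350688-1350788: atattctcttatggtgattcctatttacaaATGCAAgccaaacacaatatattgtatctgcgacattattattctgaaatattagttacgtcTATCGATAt

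The receptor and the kinase carried no optimal summit. dome (FBgn0043903, X 19676061 to 19683518, 7.46 kb) had 0, 1 and 0 candidate summits in replicates 1, 2 and 3, a mean of 0.333 ± 0.577 (SD, n = 3). The single candidate, X 19681244 to 19681633 in replicate 2, lay in an intron 2079 bp from the start site and ranked 27842 of 30000, with a signal value of 9.68. It stood near the bottom of its list, and neither of the other replicates had a candidate there. The pooled candidate list held 0 at dome. The nearest optimal peak beyond the window, X 19668422 to 19668794, had its summit 7466 bp outside dome and inside Zw, the gene for glucose-6-phosphate dehydrogenase. Its signal value was 1617 and its ranks were 59, 72 and 58 in the 3 replicate lists. The peak was thus high in every replicate, and its summit lay 1127 bp from the Zw start.

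hop (FBgn0004864, X 11360930 to 11368098, 7.17 kb) had 0, 0 and 1 candidate summits in replicates 1, 2 and 3. The candidate of replicate 3, X 11370923 to 11371326, lay 3027 bp upstream of hop, had a signal value of 28.5 and ranked 11494. Its nearest start site, 1460 bp away, was that of dlg1, which encodes a scaffold protein of septate junctions. Just outside the 5 kb limit each replicate had a candidate in dlg1, at 5414, 5354 and 5347 bp from hop, with ranks 11968, 8144 and 7248. The nearest optimal peak, X 11351396 to 11351696, lay 9387 bp away in CG1737, with a signal value of 860 and ranks of 287, 308 and 327. Both genes therefore had high peaks nearby that lay inside neighbouring genes and beyond the limit.

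A gene without an optimal summit was common at this length. Of the 5 genes described 3 had at least 1 optimal summit, against 6717 of 13945, or 48.2%, of all protein-coding genes by the same rule. Among genes of 0.5 to 2 times the length of dome 57.2% of 3085 had one, and among those of 0.5 to 2 times the length of hop 56.3% of 3172 did. As few candidates as dome and hop had, at most 1 over all 3 replicate lists, were found in 14.4% of the first set and in 15.1% of the second.

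**Figure D1:**
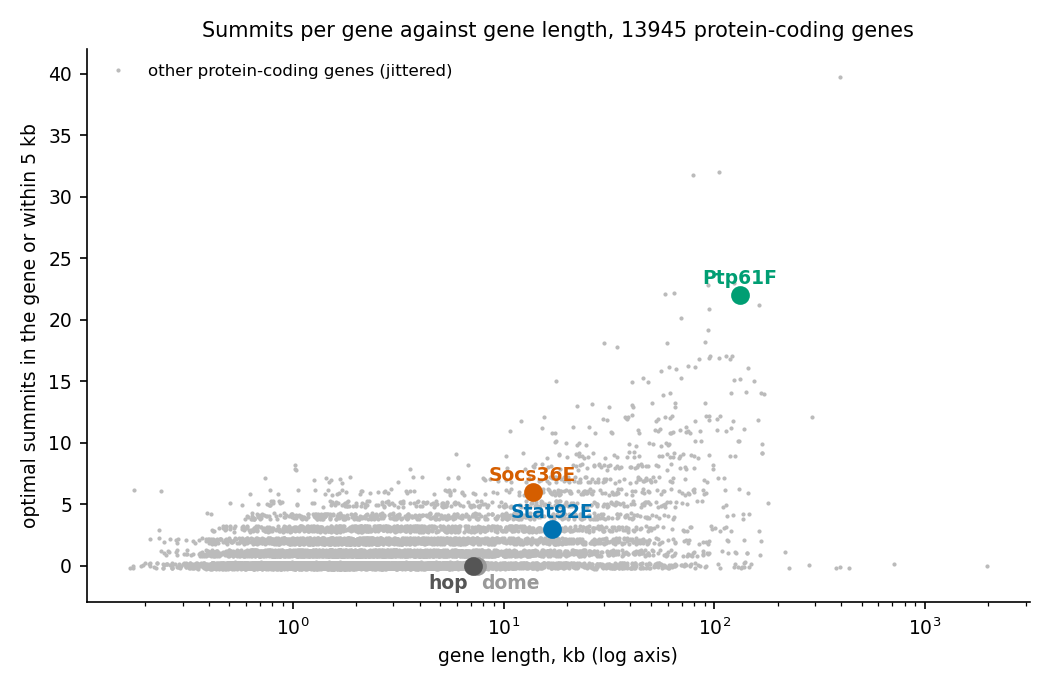
Number of optimal summits in the gene or within 5 kb (vertical axis, jittered for the other genes) against gene length in kb (log axis) for 13945 protein-coding genes. dome and hop sit at 0, Stat92E at 3, Socs36E at 6 and Ptp61F at 22, where 5 genes had more.

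Stat92E, the transcription factor of the pathway (FBgn0016917, 3R 20535323 to 20552311, 17.0 kb), had 3 optimal summits, 1 inside the gene and 2 upstream of it. The highest peak, 3R 20550032 to 20550333, lay in an intron, 918 bp from the nearer of the 2 Stat92E start sites, and had a signal value of 405 and rank 1268 in the pooled list. Its ranks were 981, 1916 and 1306 in replicates 1, 2 and 3, which is 3.27%, 6.39% and 4.35% from the top of the 30000 candidates. Replicate 2 placed it lowest, and the mean was 4.67% ± 1.58 (SD, n = 3).

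The other Stat92E peaks overlapped each other, at 3R 20556252 to 20556495 and 3R 20556353 to 20556772, with signal values of 366 and 165. Both summits lay in DPCoAC, a mitochondrial carrier gene, one in an intron and the other in the 5′ UTR, and the start site of DPCoAC was nearest to each. The ranks of the first were 1401, 2834 and 1267, and those of the second were 6160, 2834 and 3372, since replicate 2 had 1 peak in place of these 2. The second summit was 4252 bp from Stat92E, and the next optimal summit, with a signal value of 178, was at 5495 bp, just past the limit. Candidate summits at Stat92E numbered 11, 11 and 10 in the 3 replicates (10.7 ± 0.577, SD, n = 3), and the count was 3 in each replicate when the lists were cut to their 8164 highest peaks.

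Socs36E, an inhibitor that binds activated receptor complexes (FBgn0041184, 2L 18138675 to 18152417, 13.7 kb), had 6 optimal summits, all of them inside the gene. The highest, 2L 18145338 to 18145634, lay in an intron 6930 bp from the only annotated start site and had pooled rank 621, with a signal value of 615. Its signal value was 219, 149 and 245 in replicates 1, 2 and 3, and its ranks were 583, 674 and 685. The replicates gave it nearly the same place, 2.16% ± 0.187 from the top (SD, n = 3).

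From the 5′ end, the first Socs36E peak (2L 18151208 to 18151367, 192) lay in an intron 1106 bp from the start, and the second (2L 18150335 to 18150754, 114) at 1872 bp. The third (2L 18146640 to 18147059, 297) ranked 2094, 4684 and 1649 in the 3 replicates, 9.36% ± 5.46 from the top. It was the least even of the 6, with replicate 2 lowest. The fifth and the sixth (2L 18141548 to 18141967, 97.4, and 2L 18141501 to 18141707, 329) overlapped, and in each replicate 1 peak covered both, with ranks 2119, 1755 and 1676. The summit of the fifth was in a coding exon and that of the sixth in the intron beside it, and both were nearer to a start site of kel, known for actin in ovarian ring canals, than to that of Socs36E. The next optimal summit outside the gene was 16868 bp away.

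Socs36E had 10, 13 and 11 candidates in the 3 replicates (11.3 ± 1.53, SD, n = 3), and 5, 6 and 6 of them were among the 8164 highest peaks of their lists. Genes of 0.5 to 2 times its length had a median of 1 optimal summit, and 7.39% of those 1907 genes had 6 or more. For Stat92E the median over 1647 genes of like length was also 1, and 34.3% had 3 or more. Per 10 kb of gene and flanks there were 2.53 optimal summits at Socs36E, 1.54 at Ptp61F, 1.11 at Stat92E and 0 at dome and hop. The value over the 6 whole chromosome arms, with the sequence between genes included, was 0.610. Overlapping peaks each counted here.

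**Figure D2:**
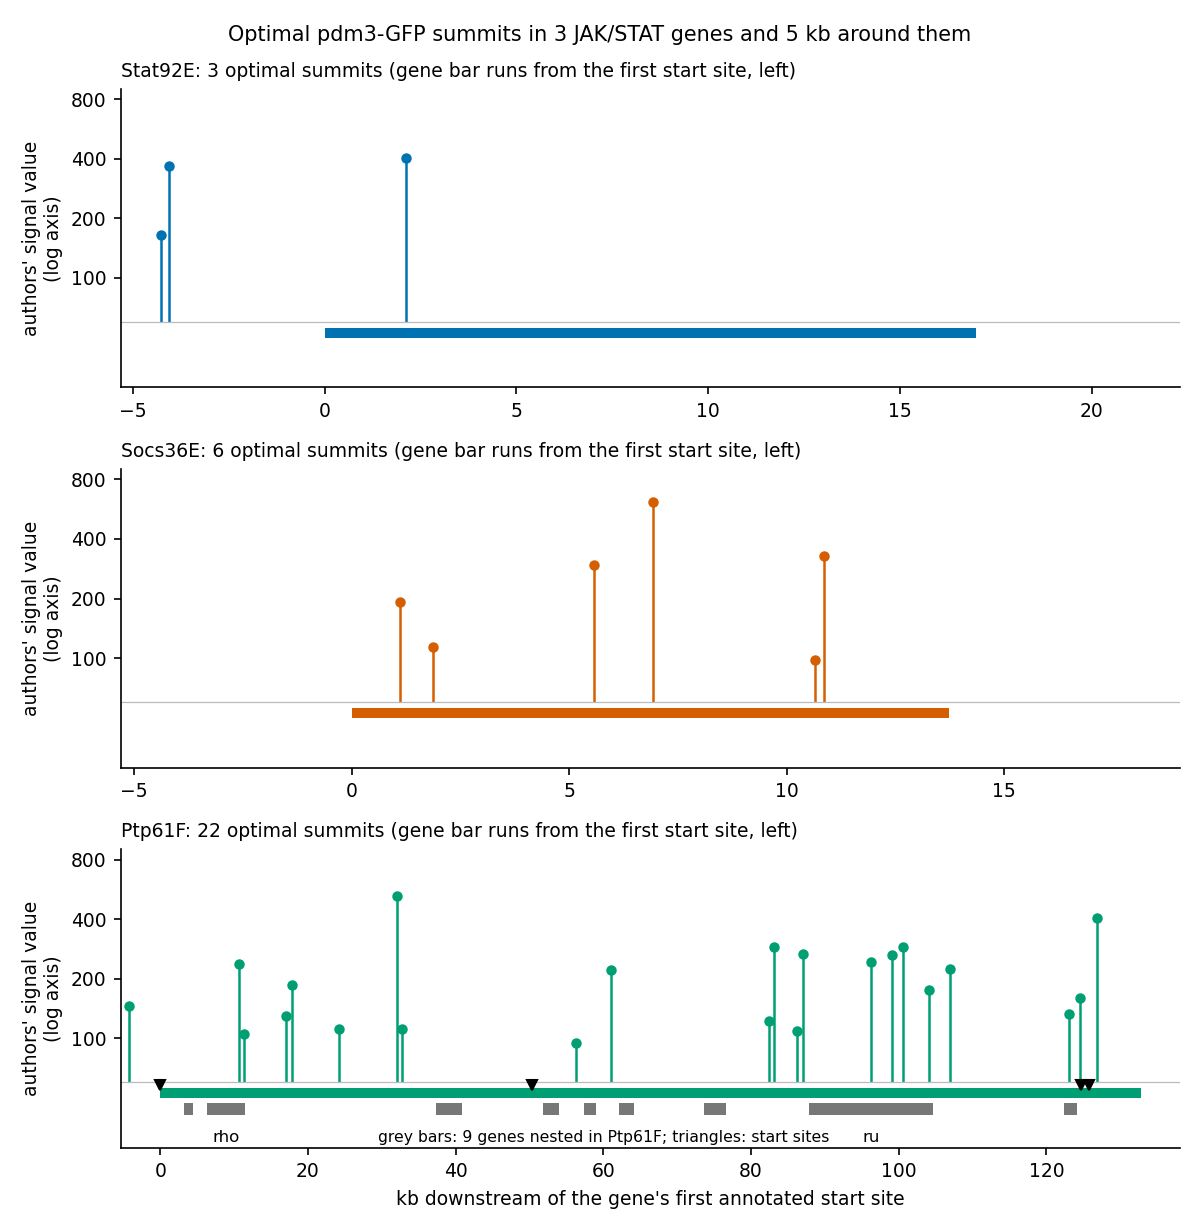
Authors' signal value (log axis) of each optimal summit against its distance downstream of the gene's first start site in kb, for Stat92E, Socs36E and Ptp61F, with coloured bars for the genes, grey bars for the 9 genes nested in Ptp61F and triangles for its start sites. The Socs36E summits all lie inside the gene, and 2 of the 3 Stat92E summits lie upstream of it. Those of Ptp61F fall into 5 stretches parted by gaps of over 10 kb, the widest of 23543 bp.

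Ptp61F, the phosphatase (FBgn0267487, 3L 1342493 to 1475257, 133 kb), had 22 optimal summits, 21 inside the gene and 1 at 4244 bp upstream of it in an intron of stet. Candidate summits numbered 45, 56 and 51 in replicates 1, 2 and 3 (50.7 ± 5.51, SD, n = 3), and 19, 19 and 21 in lists cut to their 8164 highest peaks. Candidates include background, and their counts at Ptp61F, Stat92E and Socs36E were not set against those of other genes. The gene is long, and among the 175 genes of 0.5 to 2 times its length the median was 6 optimal summits and the highest count was 32. Of these genes 2.86%, or 5 with Ptp61F itself, had 22 or more. The next optimal summit outside the window, with a signal value of 206, was 6872 bp from the gene.

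The short transcripts RA, RB and RD, which start at 3L 1350599 and 1349542 and span 6.62 to 8.11 kb, held 1 summit. Upstream of them, in the 74.4 kb that are intronic to RC (start 3L 1424979), lay 13 summits with signal values of 94.3 to 290. A further 7 lay in the 50.3 kb covered by RE alone (start 3L 1475257), with values of 105 to 523. All 21 summits inside the gene were in introns of Ptp61F, and 20 of the 22 were nearer to a start site of another gene. Neighbouring summits were 577 to 23543 bp apart, with a median of 3129 bp.

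Ptp61F had 1 summit within 1 kb of its start sites. This peak, 3L 1350528 to 1350947, had its summit 139 bp upstream of the start shared by RA and RB, with a signal value of 160 and rank 4483 of the 8164 optimal peaks, and its sequence above holds the POU half-site and the DREF word. It ranked 4478, 5270 and 4940 in replicates 1, 2 and 3, 16.3% ± 1.33 from the top (SD, n = 3). The 3 replicates placed this site close together.

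The highest Ptp61F peak, 3L 1442944 to 1443237, lay deep in the intron of RE, 18168 bp from the nearest Ptp61F start and 5275 bp from the start of SA2, a nested cohesin gene. Its signal value was 194, 88.3 and 255 in replicates 1, 2 and 3, and its ranks were 728, 1614 and 626. The mean place was 3.30% ± 1.81 (SD, n = 3), with replicate 2 lowest. The second highest, 3L 1348294 to 1348534, lay in an intron common to all 5 transcripts, 1107 bp from the RD start, and its sequence above holds the STAT palindrome with 4 free bases. It had a pooled signal value of 407 and ranks of 891, 1523 and 1954. Replicate 1 placed it highest, and the mean was 4.85% ± 1.78.

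With the summits split wherever neighbours lay over 10 kb apart, the largest stretch held 9 of them over 24.4 kb, 3L 1368341 to 1392768. It includes ru, a nested gene for a rhomboid protease that acts on EGF receptor ligands, and 4 summits lay inside ru. Among them were 3L 1374553 to 1374768, with a signal value of 288, and 3L 1376096 to 1376264, with 263 and the STAT palindrome with 3 free bases. The best placed of the 9 was 3L 1392037 to 1392292, with a signal value of 290 and a place of 7.24% ± 0.775. A stretch of 7 over 22.1 kb held the highest peak and 2 summits inside rho, another rhomboid protease gene, one of them 57 bp from the rho start with a signal value of 105. Nested genes or stet spanned 8 of the 22 summits, so a site counted for Ptp61F may lie in another gene as well.

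Of the 22 Ptp61F summits, 14 were matched in all 3 replicates by a peak among the 8164 highest of the list. The share over all optimal peaks was close to this, at 61.7%. These 14 had signal values of 112 to 523. The other 8 had values of 94.3 to 146, and since a cut by rank passes high peaks more readily, this split says nothing of how even they were. The lowest, 3L 1418744 to 1419163, had a place of 35.7% ± 10.3 (SD, n = 3). The most uneven, 3L 1351965 to 1352384 in the 3′ UTR of the nested gene CG9166, ranked 5820, 19277 and 4331 in the 3 replicates. Replicate 2 had only a weak candidate there.

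**Figure D3:**
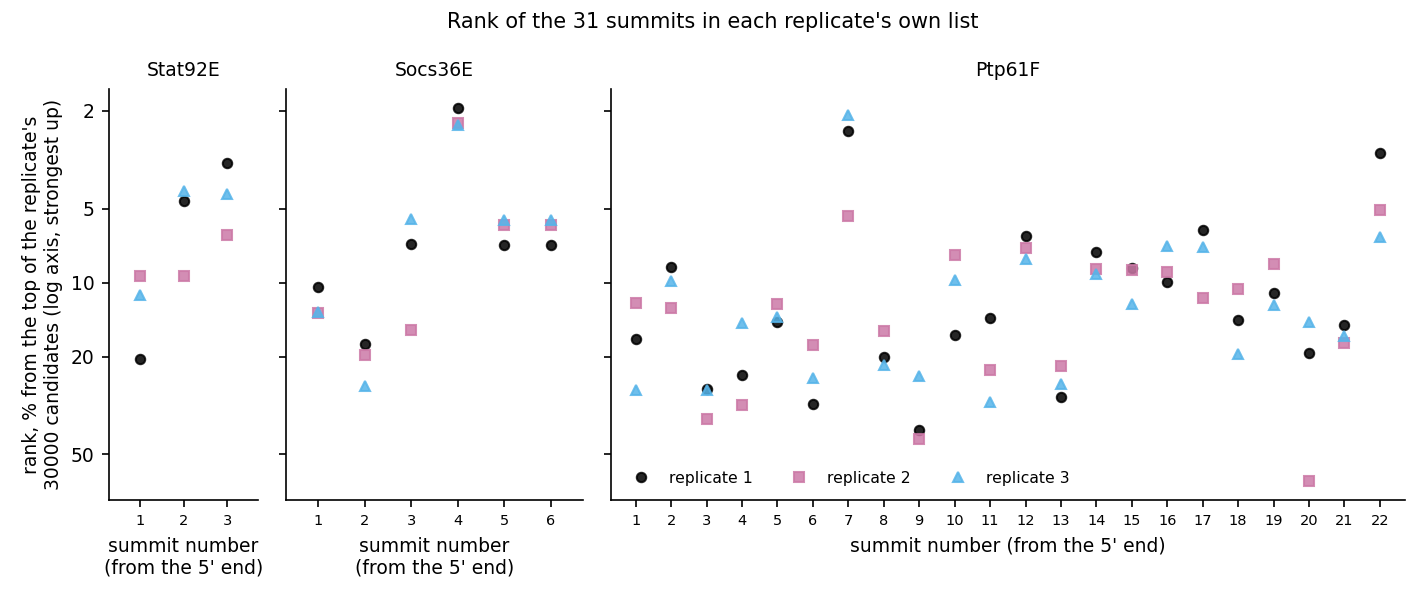
Place of each of the 31 summits in each replicate's list of 30000 candidates, in percent from the top (log axis, strongest at the top), with summits numbered from the 5′ end of the gene. The fourth Socs36E summit lies at 1.94% to 2.28% in all replicates, and replicate 2 stands apart at Ptp61F summit 20, at 64.3%. Summits covered by the same replicate peak have the same place.

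Across the 3 bound genes, all 31 peaks were covered over at least 50% of their length by a peak of every replicate, against 90.2% of the 8164 optimal peaks. The optimal list was itself derived from these candidate lists, so this describes the sites and is no independent check. In replicates 1, 2 and 3, 2, 4 and 2 of the 31 shared a replicate peak with a neighbour and took the same place. The places of the 31 ran from 1.94% to 39.9% in replicate 1, from 2.25% to 64.3% in replicate 2 and from 2.09% to 30.5% in replicate 3, with medians of 11.1%, 11.6% and 12.3%. The highest Socs36E summit led in replicates 1 and 2, and that of Ptp61F led in replicate 3. That of Stat92E came last of the 3 in every replicate. The means of Socs36E and Ptp61F, and those of Ptp61F and Stat92E, differed by less than the larger SD of each pair. The replicate values ran from 1.94% to 2.28% for Socs36E and from 3.27% to 6.39% for Stat92E. Each of these summits was picked as its gene's highest in the same replicates pooled, and a difference between the genes was not tested.

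The 31 summits had a median signal value of 192, against 173 over all optimal peaks, and 18 of them were in the higher-signal 50% of the list. By place, 27 were in introns of the member gene, 1 in a coding exon and 3 outside. Of the 31, 2 lay within 1 kb of the member's own start sites, and 24 were nearer to a start site of another gene. These counts were not taken over all optimal summits, so they describe the 31 alone. The member peaks had a median width of 297 bp, against 420 bp over the optimal list. Many of the member peaks were 420 bp wide as well. GC content of these windows of 50 bases to either side of each summit ran from 24.8% to 58.4% with a median of 34.7%, against a median of 31.7% over all optimal windows.

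Motifs were searched on both strands of the same windows. The STAT palindromes TTCNNNGAA and TTCNNNNGAA, either one, were found in 2 of the 31 windows, or 6.45%, against 6.98% of the 8164 optimal windows. Both matches were at Ptp61F, TTCATAGAA at 3L 1376187 to 1376195 and TTCCAGAGAA at 3L 1348416 to 1348425. No window at Stat92E or Socs36E held either palindrome. The POU octamer ATGCAAAT was in 0 of the 31 windows, against 1.59% of all windows, and its half-site ATGCAA, which the octamer contains, in 2, against 819 of the 8164. The DREF word TATCGATA was in 1, against 0.784%. With 100 bases to either side the octamer was in 1 window, or 3.23%, against 2.93% of all, so that its direction turned, and the half-site was in 6, or 19.4%, against 19.1%. These are matches of letters, and the member shares stood close to those of all windows or rested on at most 2 windows.

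The wider pathway was described over a list of 27 genes, all matched to the annotation (asrij through a synonym), of which 18 had an optimal summit, or 66.7%, against the 48.2% of all genes given above. The listed genes had a median length of 6.80 kb, and 57.4% of all genes of 5 to 10 kb had a summit. The count depended on the flanks: 9 of the 27 had a summit inside the gene, against 14.2% of all genes. Within 1 kb of a start site 8 had one, against 21.3%. These shares of all genes were not matched for gene length. Of the 9 genes, 6 were not among the 5 described. With the 5 kb flanks, the 22 genes other than the 5 described had a summit in 15 cases, or 68.2%. Among the ligands upd2 had 1 summit, upd3 had 2 and upd1 had 0, and none of them lay inside the gene. The other gene listed as a receptor, et, had 1, which is the Zw peak already described at 7466 bp from dome. Neither gene listed as a receptor had an optimal summit inside it.

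Among the other negative regulators, Su(var)2-10, the fly PIAS protein, had the highest peak of the list, with a signal value of 2330 and a place of 0.0744% ± 0.00694 (SD, n = 3), but its summit was 81 bp from the start of GstE13. ken, a repressor of some Stat92E targets, had 4 summits, the highest 860, in its own intron at 1.07% ± 0.515. Socs16D had 8, all outside the gene, and Socs44A had 0. Of the modulators, apt, a nuclear factor that limits the response in border cell formation, had 6 summits with the highest at 375, Stam had 2 and asrij had 0.

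Of 11 target genes 7 had a summit, or 63.6%, against 48.2% of all genes. The share over all genes rose with length, from 41.7% below 5 kb to 80.1% from 50 kb up. The targets were not matched for length. The highest was at zfh1, a zinc finger and homeodomain factor (692, 1.67% ± 0.517, in its own intron). Next came slbo, the C/EBP factor of border cells (613, 2.18% ± 0.993, 1958 bp outside the gene). Then came Tep2, a thioester protein of immunity (436, 4.00% ± 0.157, 2071 bp outside the gene and nearest to the start of Tep3). TotM, a stress-induced gene, had 3 summits, all outside it, with the highest at 264 and nearest to the start of Ncoa6. chinmo had 3, vir-1 had 3, with the highest nearest to the start of Fam92, and trh had 5. TotA, TotC, TotX and eve had 0. Over the 15 genes with a summit, the highest was nearest to the gene's own start in 8 and to that of another gene in 7.

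**Figure D4:**
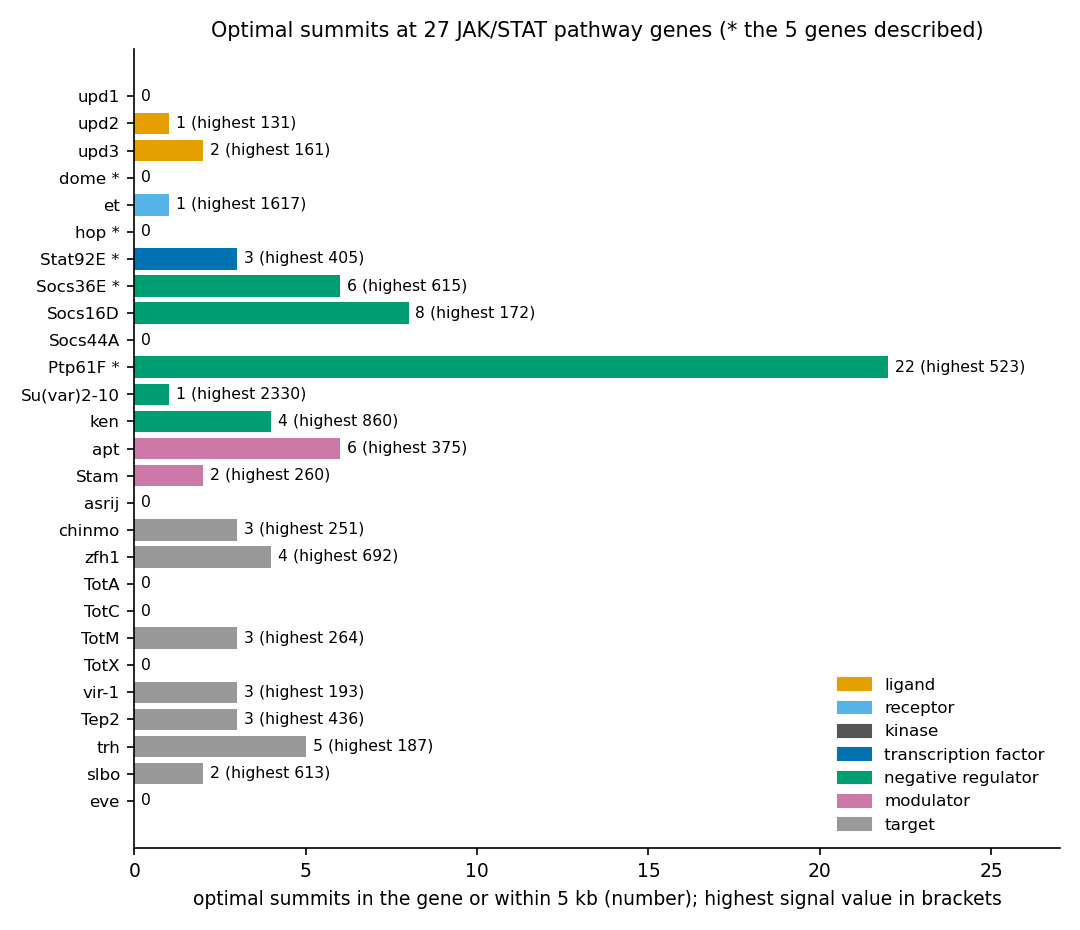
Number of optimal summits in the gene or within 5 kb for 27 JAK/STAT pathway genes, coloured by role, with the highest signal value in brackets and asterisks on the 5 genes described. Ptp61F has the most, 22, followed by Socs16D with 8 and Socs36E and apt with 6 each, and 9 genes have 0.

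Genes of like pattern were sought among those with the same number of optimal summits, by the distance between log10 places of the highest summit over the 3 replicates. Of 709 genes compared for Stat92E, the closest were Hr83 and Pak, which share 1 highest summit (distance 0.0860), and CG10357 (0.0893). Of 110 compared for Socs36E, they were CG7227 (0.165), CG3847 (0.192) and CG7991 (0.205). For Ptp61F only 2 other genes had 22 summits, shn (1.04) and ush (4.61), and the highest peaks of both stood far above that of Ptp61F, with signal values of 900 and 4027. dome and hop had no summit to compare.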

How the data were processed

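Peak lists of 3 replicates on dm6 were used, and those on dm3 were not. Per the labels' readme, the authors derived each replicate's candidates from its alignments and 1 control file, pooled candidates from all 3, and the optimal list by an irreproducible discovery rate analysis of candidates. The sources used here name no aligner, caller or threshold. The deposited signal value per peak has no stated normalization and was used to rank within a list. The deposited −log10 q-value was not used to select peaks. The deposited summit offset gave the summit. The lists give no depth, so no interval from depth was computed. No rows were identical between replicate lists.

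Genes and start sites came from Ensembl release 115, and sequences from RefSeq's dm6 assembly, with coordinates counted from 1. The sequence at 1 summit is not reported here. An optimal peak was matched to the highest replicate peak covering at least 50% of it. Summits in other genes' spans stayed counted. The members, the 27 listed genes and the comparisons were chosen with earlier results of these data known. Named genes were the members, every listed gene, with values in the text for the 8 others with the highest summits, and the 3 most like each member. Alternatives changed distances, lists, overlaps, replicates and windows. The functions were tested on simulated peaks. Python 3.11.15, numpy 2.4.6, pandas 2.3.3 and matplotlib 3.10.9 were used.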

Additional observations from a re-analysis of the deposited data

How the results depend on the processing

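The 31 optimal summits at the 5 genes became 28 without the flanks or with flanks of 1 or 2 kb, since 2 of the 3 Stat92E summits and 1 of Ptp61F lie farther out. The count was 38 within 10 kb (dome 2, hop 1), 18 in the higher-signal 50% of the optimal list, 69 in the pooled candidate list, 7 when a summit counted only for its nearest start site, and 29 when overlapping peaks were merged, an alternative chosen after seeing the data. Counting optimal peaks found high in both other replicate lists, without each replicate in turn, gave 25 each time. At flanks of up to 5 kb dome and hop stayed at 0 optimal and 0 pooled candidate summits. Candidates per replicate averaged 73.3 ± 7.51, against 28.3 ± 1.53 with lists cut to 8164 peaks, and 69.5 to 77.0 without each replicate in turn. The mean place of the highest summit ran from 3.81% to 5.37% for Stat92E, 2.10% to 2.27% for Socs36E and 2.26% to 3.90% for Ptp61F without each replicate. With an overlap of 80%, 20 of the 31 were covered in all replicates, against 55.2% of all optimal peaks, and the highest summits of Stat92E and Socs36E were not matched in every list, so they got no place. Of the listed genes 9 had a summit inside the gene (14.2% of all genes did), and 8 within 1 kb of a start site (21.3%), against 18 within 5 kb. These shares of all genes were not matched for gene length. STAT palindromes were in 4 windows with 100 bases to either side, against 12.4% of all. Depth is unknown, so what depth limits cannot be stated. No paired analysis was possible because the samples form 1 group.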
